A study of Mus musculus with 15 samples.

Results

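The genes described here encode the nuclear-encoded proteins of the mitochondrial respiratory chain and of ATP synthase. A gene was included when its symbol began with Nduf (complex I), Sdha to Sdhd or Sdhaf (complex II), Uqcr (complex III), Cycs (cytochrome c), Cox4 to Cox8 (complex IV) or Atp5 (ATP synthase, complex V), and when at least 1 probe set of the array was annotated to that gene alone. That gave 74 of the 8251 genes on the array, measured by 101 probe sets. Each gene is represented by its brightest probe set, chosen by the mean log2 signal over all arrays. Of the 74 genes, 64 could be tested, because the array software had called their probe set present on 3 or more of all 15 arrays. The tested genes comprised 4 core and 24 accessory or assembly genes of complex I, 6 of complex II with its assembly factors, 7 of complex III, cytochrome c, 10 of complex IV and 12 of ATP synthase.

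Respiratory chain complexes pass electrons from NADH and succinate to oxygen and pump protons across the inner mitochondrial membrane, and ATP synthase uses the proton gradient to make ATP. Complex I oxidises NADH, complex II oxidises succinate, complex III passes the electrons to cytochrome c, and complex IV passes them on to oxygen. Most subunits are needed in fixed proportions in nearly every cell, while some complex IV subunits come in isoforms that are mainly found in muscle or testis. In the olfactory epithelium the sensory neurons carry long axons to the olfactory bulb, die when the bulb is removed and are replaced from dividing basal cells.

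RNA came from the olfactory epithelium of male C57Bl/6 mice aged 6 weeks, and 5 groups of 3 arrays were compared. They were mice at day 1, day 5 and day 7 after both olfactory bulbs had been removed (olfactory bulbectomy, OBX), mice at day 5 after a sham operation, and untreated mice. Each array (Affymetrix MG_U74Av2, 1 colour) carried RNA pooled from 3 mice, so the p-values below measure the spread between pools. No sham group was made for day 1 or day 7, and those 2 groups were set against untreated mice. The epithelium was not sorted into cell types, so a lower signal from fewer cells of a type and one from less RNA per cell cannot be told apart.

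Markers of the tissue moved strongly over the same arrays. The summed signal of 8 markers of mature olfactory sensory neurons was 42242 to 65863 at OBX day 5, against 129937 to 136652 in sham mice, and 100443 to 107026 at OBX day 1 and 60821 to 66465 at OBX day 7, against 127116 to 139168 in untreated mice. Among 7 of these markers that were tested, 6 fell at OBX day 5 and 6 at OBX day 7, and none of the 8 was absent from all arrays. Of 10 tested macrophage markers 7 rose at OBX day 5 and 7 at OBX day 7, and of 10 tested markers of dividing cells 8 rose at each of those days. Without the first OBX day 5 array, described next, these counts at OBX day 5 were also 6, 7 and 8. The part of these shifts in the changes described below was not tested.

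The first array of the OBX day 5 group stood apart from the other 2 arrays of that group in the respiratory chain genes. It was the highest of all 15 arrays for 34 of the 64 tested genes (53.1%), against 24.5% of all 7508 tested probe sets. It was the lowest of all for 9 of the 64 genes (14.1%), against 28.3% of all tested probe sets. Relative to the mean of the other 2 OBX day 5 arrays it was higher for 47 genes and lower for 17, with a median log2 difference of 0.34, a lowest value of −1.24 for Cox7b and a highest of 0.89 for Cox4i1, whereas the median over all tested probe sets was 0.01. More than 1.5-fold higher on that array were 16 genes, and more than 1.5-fold lower were 7, which were Cox7b, Ndufa5, Uqcrb, Ndufaf4, Ndufs4, Ndufs1 and Cycs. Over all tested probe sets 8.16% were more than 1.5-fold higher and 24.2% more than 1.5-fold lower on that array. The third array of the group lay the other way, with a median log2 difference of −0.27 from the mean of the other 2. The 3 differences of a gene cancel out by construction, so a high first array lowers the others. Against the mean of all 15 arrays the median deviation was 0.31 on the first OBX day 5 array and −0.11 on the third. Of 7 genes with a second tested probe set, 6 differed in the same direction in both probe sets on the first array.

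The spread between arrays was widest at OBX day 5. The median SD of the 64 genes on the log2 scale was 0.30 at OBX day 5, 0.09 at OBX day 1, 0.09 at OBX day 7, 0.08 in sham mice and 0.13 in untreated mice. Over all tested probe sets it was 0.28, 0.13, 0.13, 0.13 and 0.15 in the same order, so the wider spread at OBX day 5 was not particular to these genes. Array weights, estimated over all tested probe sets, were lowest for the first OBX day 5 array (0.07) and at least 0.56 for every other array. Because all groups share 1 estimate of the spread, the OBX day 5 arrays also widened the errors of the comparisons at day 1 and day 7. The main counts are given with and without the first OBX day 5 array. Arrays of untreated mice, sham mice and 2 of the 3 OBX day 1 pools were scanned on a first day, and the other 7 arrays on a second, so that scan day and bulbectomy at day 5 or 7 are nearly the same split.

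**Figure D1:**
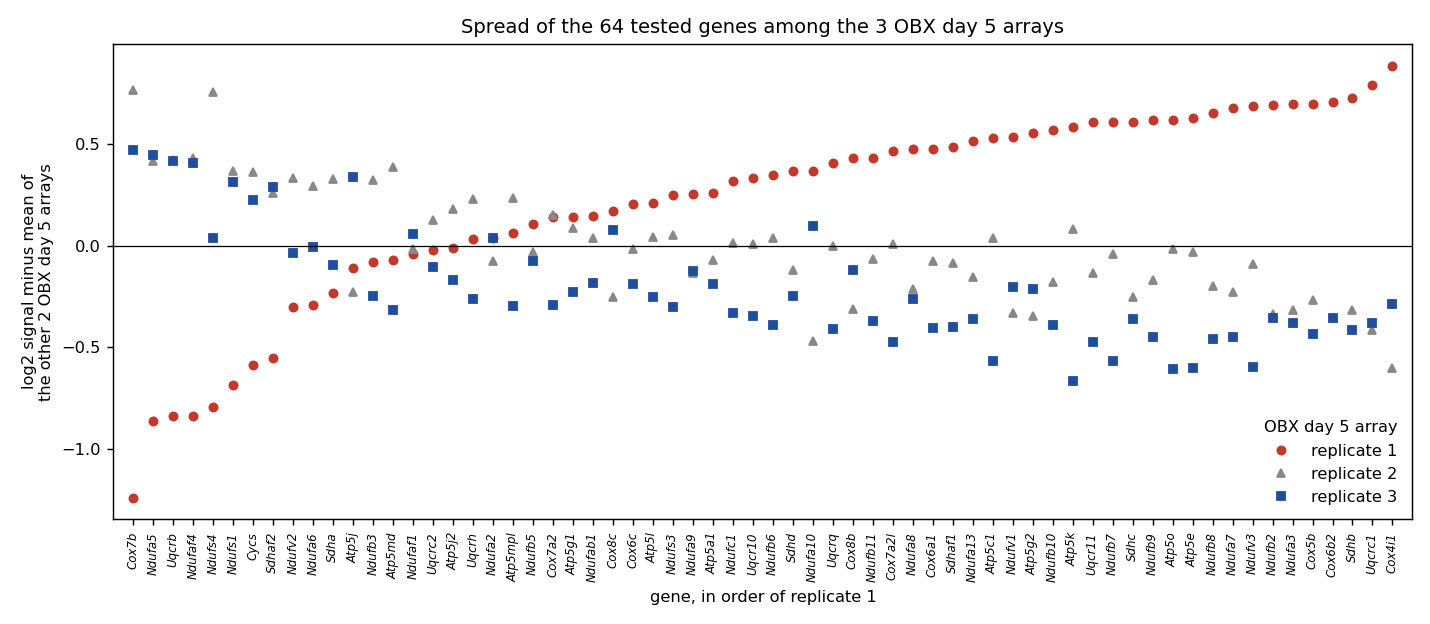
Log2 signal of each of the 3 OBX day 5 arrays minus the mean of the other 2, with 1 point per array for each of the 64 tested respiratory chain genes. The first array has a median of 0.34 and the third of −0.27, so the genes lie mostly above zero on the first array and mostly below zero on the third. The 3 differences of a gene cancel out by construction, so the arrays are not independent here.

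Promoter regions of 4 genes are shown because the results turn on them: Cox6b2, which had the largest rise, Uqcr11 and Atp5e, the 2 with a match to an ETS motif among the 5 genes that rose, and Ndufs4, which had the largest fall. The sequences are the 250 bases before the annotated start, given on the gene's strand from 5′ to 3′, from RefSeq on GRCm38.p6. Capitals mark CCGGAAG or its reverse complement, the ETS family motif bound by GABPA, a regulator of many respiratory chain genes. They cover chr7:4753095-4753344 (minus strand) for Cox6b2, chr10:80406822-80407071 (minus strand) for Uqcr11, chr2:174464102-174464351 (minus strand) for Atp5e and chr13:114388095-114388344 (minus strand) for Ndufs4.
Cox6b2: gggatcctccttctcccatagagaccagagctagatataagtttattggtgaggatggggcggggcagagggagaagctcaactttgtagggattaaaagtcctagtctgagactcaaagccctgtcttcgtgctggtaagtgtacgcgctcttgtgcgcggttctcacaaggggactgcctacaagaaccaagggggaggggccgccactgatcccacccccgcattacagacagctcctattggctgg
Uqcr11: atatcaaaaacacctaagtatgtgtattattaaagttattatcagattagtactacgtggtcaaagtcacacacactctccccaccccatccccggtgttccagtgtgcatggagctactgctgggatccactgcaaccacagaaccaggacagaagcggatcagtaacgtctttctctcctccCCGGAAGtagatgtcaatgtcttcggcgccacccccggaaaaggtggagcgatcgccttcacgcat
Atp5e: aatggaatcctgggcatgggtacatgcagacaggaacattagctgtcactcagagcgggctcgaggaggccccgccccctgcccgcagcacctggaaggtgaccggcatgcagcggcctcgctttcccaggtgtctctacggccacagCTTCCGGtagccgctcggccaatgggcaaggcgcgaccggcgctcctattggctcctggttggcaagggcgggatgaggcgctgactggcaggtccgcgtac
Ndufs4: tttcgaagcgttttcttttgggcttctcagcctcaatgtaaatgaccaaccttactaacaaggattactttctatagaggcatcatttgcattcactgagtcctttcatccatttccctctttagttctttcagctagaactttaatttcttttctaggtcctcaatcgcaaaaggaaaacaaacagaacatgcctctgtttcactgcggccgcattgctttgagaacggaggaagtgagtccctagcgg
In Uqcr11 the match lies on the gene's strand at positions −66 to −60, and in Atp5e on the opposite strand at −102 to −96, counted from the annotated start. Ndufs4 has a match to the YY1 motif ATGGCGG at positions 39 to 45 after its start, outside the printed bases. None of the motifs searched was found in the windows of Cox6b2, Cox8b and Ndufc1, the other genes that rose at OBX day 5.

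Promoter windows of 300 bases, reaching 50 bases past the start, were at hand for 61 of the 74 genes. CCGGAAG was found on either strand in 18 of the 61 genes (29.5%), against 17.1% of 6572 genes on the array. ATGGCGG was found in 8 genes (13.1%), against 8.08%. The NRF1 motif (GCGCA and GCGC with 1 base between them) was found in 12 genes (19.7%), against 9.97%. At least 1 of the 3 motifs was found in 32 genes (52.5%), against 29.9% of the genes on the array. These shares describe letters in a window, and base composition was not matched between the sets.

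At OBX day 5 most respiratory chain genes kept a signal near that of sham mice, while 5 rose and 3 fell. Cox6b2, Uqcr11, Cox8b, Atp5e and Ndufc1 rose, and Ndufs4, Ndufs1 and the mostly absent probe set of Cox8c fell (limma, Benjamini-Hochberg adjusted p under 0.05 over all tested probe sets). These 8 of 64 genes are 12.5%, whereas 21.0% of all tested probe sets were called in this comparison (11.8% rose and 9.19% fell). The log2 changes ranged between −1.06 and 1.26 with a median of 0.06, against a median of −0.01 over all tested probe sets. For 42 of the 64 genes (65.6%) the 95% interval of the change lay within 1.5-fold in either direction, which held for 39.2% of all tested probe sets.

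Counts for OBX day 5 against sham mice depend on single arrays. Without the first OBX day 5 array 2 genes rose and 10 fell, the median change was −0.05, and 27.4% of all probe sets were called (15.5% rose and 11.8% fell). Without the third OBX day 5 array 11 rose and 5 fell, the median was 0.17, and 21.8% of all probe sets were called (11.8% rose and 10.1% fell). Leaving out sham arrays 1 or 2 left 4 called genes each. No share of all tested probe sets is set beside that count or the scan day count below. Both describe the settings and are no result about these genes. Cox6b2 and Ndufs4 were called in the same direction whichever array was left out. With scan day as a block, a fit that rests on 1 OBX day 1 array to link the scan days, none of the 64 genes was called at OBX day 5. In that fit the log2 change was −1.21 for Ndufs4 (adjusted p 0.16), −0.56 for Ndufs1 (0.44), 0.53 for Uqcr11 (0.536), 0.67 for Cox8b (0.41), 0.58 for Atp5e (0.517), 0.30 for Ndufc1 (0.74) and −0.40 for Cox8c (0.537).

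**Figure D2:**
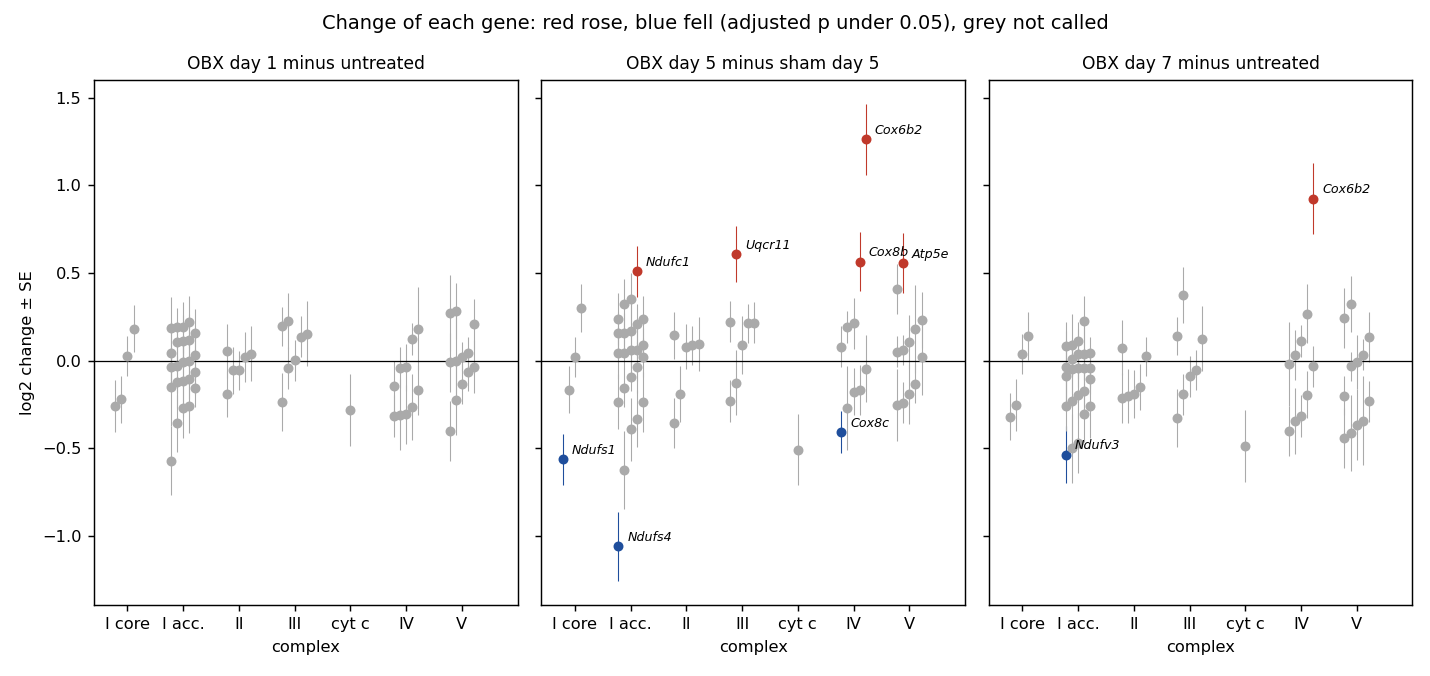
Log2 change ± SE of each of the 64 tested genes, grouped by complex, in 3 panels: day 1 after OBX (control untreated mice), day 5 (control sham mice) and day 7 (control untreated mice). Most genes lie near zero at each time, with Cox6b2 highest at OBX day 5 (1.26) and Ndufs4 lowest (−1.06).

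Among the core subunits of complex I, which hold the redox centres, 1 of 4 tested genes changed at OBX day 5. Ndufs1, the large iron-sulphur subunit of the NADH-oxidising arm, had signals of 2289, 3722 and 3629 at OBX day 5, against 4877, 4290 and 4758 in sham mice. Its signals were 3722, 3993 and 3857 at OBX day 1 and 3801, 3902 and 3913 at OBX day 7, against 4373, 4763 and 4699 in untreated mice. Every OBX array therefore lay below every sham and untreated array, and the first OBX day 5 array was the lowest. The log2 change at OBX day 5 was −0.56 ± 0.15 (SE; 95% interval −0.88 to −0.25; adjusted p 0.0142). Without the first OBX day 5 array it was −0.33 (adjusted p 0.00612), and without sham array 1 the adjusted p was 0.0536. Against untreated mice the log2 change was −0.26 at OBX day 1 and −0.25 at OBX day 7, and neither passed the test.

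Ndufv1, the core subunit that binds NADH and the flavin, had signals of 17287, 11582 and 12308 at OBX day 5, against 14184, 16348 and 14967 in sham mice. The groups overlapped through the first OBX day 5 array, and the log2 change of −0.16 did not pass (adjusted p 0.408). At OBX day 7 the signals were 12167, 12246 and 13625, against 17232, 15163 and 15056 in untreated mice. These groups did not overlap, but the log2 change of −0.32 had an adjusted p of 0.134.

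Among 24 tested accessory and assembly genes of complex I, 1 rose and 1 fell at OBX day 5. Ndufs4, an accessory subunit beside the NADH-oxidising arm whose loss in mice causes a fatal Leigh-like encephalopathy, had the largest fall of all 64 genes. Its signals were 368, 754 and 542 at OBX day 5, against 1109, 1125 and 1092 in sham mice. At OBX day 1 they were 705, 628 and 737 and at OBX day 7 701, 737 and 733, against 882, 1120 and 1083 in untreated mice. All 9 OBX arrays were below all 6 control arrays, and the OBX day 5 arrays spread most widely. Relative to sham mice the signal was 2.08-fold lower at OBX day 5, with a log2 change of −1.06 ± 0.20 (95% interval −1.48 to −0.64; adjusted p 0.00169). It was −0.79 without the first OBX day 5 array and stayed past the threshold. The log2 changes of −0.57 at OBX day 1 (adjusted p 0.170) and −0.50 at OBX day 7 (adjusted p 0.110) against untreated mice did not pass.

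Ndufc1, a small membrane-arm subunit, had signals of 5598, 4852 and 4137 at OBX day 5, against 4089, 3020 and 3154 in sham mice. The groups did not overlap, and the log2 change was 0.51 ± 0.15 (95% interval 0.20 to 0.82; adjusted p 0.0233). It lost its call without the first OBX day 5 array (adjusted p 0.0508), without sham array 2 (0.101) and without sham array 3 (0.088). Ndufaf4, a factor needed to assemble complex I, had a log2 change of −0.62 at OBX day 5 that did not pass (adjusted p 0.0615), with its lowest signal of 539 on the first OBX day 5 array.

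Ndufv3, an accessory subunit of the NADH-oxidising arm, was the only respiratory chain gene that fell at OBX day 7. Its signals were 3097, 2925 and 2978 at OBX day 7 and 3106, 3742 and 3376 at OBX day 1, against 3982, 4365 and 4734 in untreated mice. At OBX day 5 they were 4647, 3241 and 2566, against 4366, 4081 and 4327 in sham mice. The day 7 and day 1 groups lay below untreated mice without overlap, while the OBX day 5 arrays fell on both sides of the sham arrays. The log2 change at OBX day 7 was −0.54 ± 0.16 (95% interval −0.88 to −0.19; adjusted p 0.0428), and this call was lost when any single untreated or OBX day 7 array was left out (adjusted p 0.0667 to 0.138) and with scan day as a block (−0.52; adjusted p 0.779).

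None of the 6 tested genes of complex II changed at OBX day 5, and their median log2 change was 0.08. Sdhc, a membrane anchor of the complex, had signals of 13060, 8762 and 8337 at OBX day 5, against 8881, 9372 and 9687 in sham mice. The first OBX day 5 array was the highest of all 15 and the other 2 lay below the sham arrays. At OBX day 7 the signals were 8278, 8301 and 8450, against 9331, 9408 and 9006 in untreated mice, a log2 change of −0.15 that did not pass. Sdhaf2, which helps attach the flavin to Sdha, had signals of 762, 1109 and 1124 at OBX day 5, against 1188, 1273 and 1312 in sham mice. All OBX day 5 arrays were lower, but the log2 change of −0.35 had an adjusted p of 0.0955.

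Of 7 tested genes of complex III, 1 rose at OBX day 5. Uqcr11, a small subunit of the complex, had signals of 8553, 6075 and 5189 at OBX day 5, against 4444, 3839 and 4468 in sham mice. At OBX day 1 they were 4692, 5029 and 5133 and at OBX day 7 5632, 5521 and 5306, against 3461, 4606 and 4721 in untreated mice. The OBX day 5 and day 7 arrays were above all control arrays, and the OBX day 1 arrays overlapped with untreated mice. Uqcr11 was 1.52-fold higher at OBX day 5, with a log2 change of 0.61 ± 0.16 (95% interval 0.27 to 0.95; adjusted p 0.0148). Without the first OBX day 5 array it was 0.40 (adjusted p 0.027), and without sham array 2 it was 0.54 (adjusted p 0.065). The log2 change against untreated mice was 0.23 at OBX day 1 and 0.38 at OBX day 7, and neither passed. Uqcrc2, a core protein of the complex on the matrix side, had signals of 4105, 4398 and 3953 at OBX day 5, against 5072, 4865 and 4652 in sham mice, and its log2 change of −0.23 did not pass (adjusted p 0.189).

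Cytochrome c, encoded by Cycs, carries electrons between complexes III and IV and triggers caspase activation when it leaves the mitochondrion. Its signals were 1228, 1906 and 1788 at OBX day 5, against 2758, 1982 and 2195 in sham mice. At OBX day 1 they were 1540, 2041 and 1792 and at OBX day 7 1745, 1457 and 1447, against 1605, 2510 and 2509 in untreated mice. The OBX day 5 arrays lay below the sham arrays without overlap, and the day 1 and day 7 groups overlapped with untreated mice. The log2 changes of −0.51 at OBX day 5 (adjusted p 0.0942) and −0.49 at OBX day 7 (adjusted p 0.134) did not pass.

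Among 10 tested genes of complex IV, 2 rose and 1 fell at OBX day 5, and all 3 are isoforms known from muscle or testis. The 1 that fell, Cox8c, had a probe set that was mostly called absent. Cox6b2, the isoform of subunit 6b known from testis, had signals of 1732, 1059 and 1060 at OBX day 5, against 495, 480 and 590 in sham mice. At OBX day 1 they were 573, 400 and 386 and at OBX day 7 986, 1018 and 1145, against 559, 488 and 616 in untreated mice. All OBX day 5 and day 7 arrays were above all sham, untreated and OBX day 1 arrays, and OBX day 1 overlapped with untreated mice. The probe set was called present on 3 of 3 arrays at OBX day 5 and 3 of 3 at OBX day 7, and on 2 of 3 at OBX day 1, 0 of 3 in sham mice and 1 of 3 in untreated mice. Because no sham array called the probe set present, the sham signal is only a bound. Cox6b2 had a signal 2.40-fold higher at OBX day 5 than in sham mice, a point estimate and no minimum. The log2 change of Cox6b2 was 1.26 ± 0.20 (95% interval 0.83 to 1.70, adjusted p 0.000606). At OBX day 7 Cox6b2 was 1.90-fold higher than in untreated mice, with a log2 change of 0.92 ± 0.20 (95% interval 0.49 to 1.36, adjusted p 0.00823).

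The rise of Cox6b2 at OBX day 5 was 1.03 on the log2 scale without the first OBX day 5 array (adjusted p 0.001). Against the other control the log2 change was 1.18 at OBX day 5 (untreated mice; adjusted p 0.00101) and 1.01 at OBX day 7 (sham mice; adjusted p 0.00472). With scan day as a block the log2 change was 1.57 at OBX day 5 (adjusted p 0.073) and 1.23 at OBX day 7 (adjusted p 0.247), estimates that rest on the 1 OBX day 1 array scanned on the second day. The probe set of Cox6b2 has a suffix (f) that Affymetrix gives to sets whose probes may match related transcripts, so other members of the gene family could contribute.

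Cox8b, the isoform of subunit 8 of heart and skeletal muscle, had signals of 4404, 3125 and 3419 at OBX day 5, against 1901, 2670 and 2861 in sham mice. At OBX day 1 they were 1962, 1735 and 1714 and at OBX day 7 2377, 3172 and 2559, against 2292, 2368 and 2032 in untreated mice. The OBX day 5 arrays were above all sham and untreated arrays, the OBX day 1 arrays were below all untreated arrays, and the OBX day 7 arrays were above them. At OBX day 5 the log2 change was 0.57 ± 0.17 (95% interval 0.21 to 0.92; adjusted p 0.0271), whereas −0.31 at OBX day 1 and 0.27 at OBX day 7 did not pass. The call at OBX day 5 was lost without the first OBX day 5 array (0.42; adjusted p 0.0658) and without sham array 1 (0.39; adjusted p 0.127). A second probe set of Cox8b had a log2 change of 0.46 (adjusted p 0.125) in the same comparison.

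Cox8c, the isoform of subunit 8 known from testis, had signals of 3066, 2522 and 2938 at OBX day 5, against 3897, 3740 and 3627 in sham mice. It was called present on 0 of 3 OBX day 5 arrays and 1 of 3 sham arrays, so a fall of the transcript itself was not measured. These signals were not low, as the median signal of the arrays lay between 620.7 and 715.5. The log2 difference in signal was −0.41 ± 0.12 (95% interval −0.66 to −0.15; adjusted p 0.0262). The call was lost when any 1 sham array (adjusted p 0.056 to 0.0847) or the second OBX day 5 array (0.0857) was left out.

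**Figure D3:**
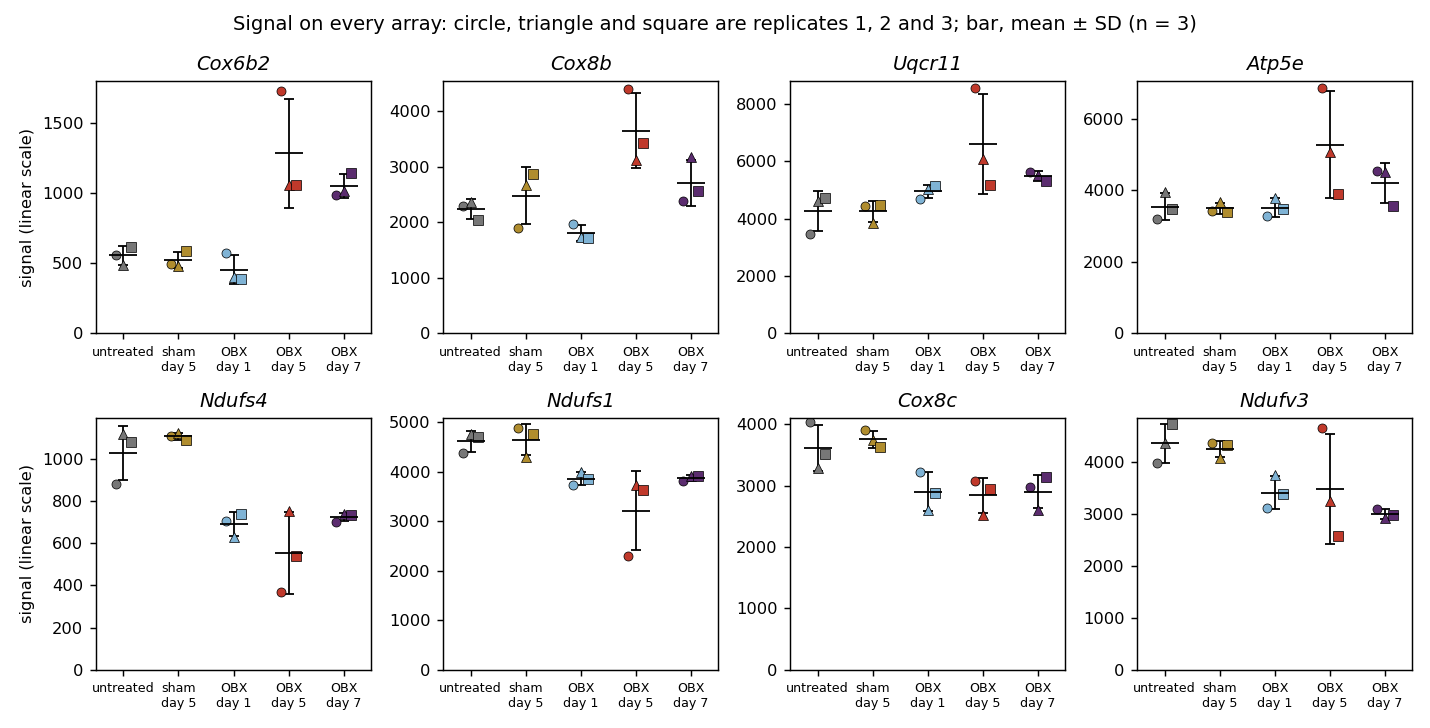
Signal on every array for Cox6b2, Cox8b, Uqcr11, Atp5e, Ndufs4, Ndufs1, Cox8c and Ndufv3 in the 5 groups, with the mean ± SD of 3 arrays a group. For Cox6b2 every OBX day 5 and day 7 array lies above every other array.

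The other 7 tested complex IV genes, which are expressed in most tissues, did not pass at OBX day 5. Cox4i1, the general isoform of subunit 4, had signals of 1480, 744 and 861 at OBX day 5, against 1014, 981 and 1051 in sham mice, and 900, 916 and 882 at OBX day 1 and 850, 799 and 910 at OBX day 7, against 982, 1107 and 1161 in untreated mice. Cox5b, which binds zinc, had signals of 11984, 7673 and 7103 at OBX day 5, against 9721, 9725 and 9787 in sham mice, and 8561, 9062 and 8575 at OBX day 1 and 7441, 7580 and 7286 at OBX day 7, against 9531, 9948 and 9973 in untreated mice. In both genes the first OBX day 5 array was the highest of all 15 and the other 2 lay below every sham array. The day 1 and day 7 arrays lay below every untreated array. For Cox4i1 the log2 change was −0.05 at OBX day 5 (adjusted p 0.886) and −0.34 at OBX day 7 (adjusted p 0.257). For Cox5b it was −0.17 at OBX day 5 (adjusted p 0.434) and −0.40 at OBX day 7 (adjusted p 0.0801). None of these passed, and without the first OBX day 5 array both genes fell at OBX day 5, with log2 changes of −0.34 for Cox4i1 and −0.40 for Cox5b.

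Cox6a1, Cox6c and Cox7a2, subunits of most tissues, and Cox7a2l, which takes part in joining complexes III and IV, had log2 changes of 0.08, 0.19, −0.18 and 0.21 at OBX day 5. Cox7b, the gene lowest on the first OBX day 5 array relative to the other 2, had signals of 2749, 6953 and 6071 at OBX day 5, against 5901, 5723 and 6018 in sham mice, and a log2 change of −0.27 that was 0.14 without that array. The 95% interval of Cox6a1 was −0.17 to 0.33 and that of Cox7a2 was −0.46 to 0.11. Cox6a1 had signals of 24932, 19352 and 16609 at OBX day 5, against 18245, 18923 and 19664 in sham mice, and Cox6c had 23670, 21351 and 19706, against 19150, 18121 and 19193. All 3 OBX day 5 arrays were above the sham arrays for Cox6c, while for Cox6a1 1 lay above, 1 among and 1 below them.

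Of the muscle isoforms, Cox6a2 and Cox7a1 were present on too few arrays to be tested. Cox6a2 had signals of 100, 95 and 1247 at OBX day 5, against 125, 315 and 115 in sham mice, and was called present only on the third OBX day 5 array. That array also carried the most signal of skeletal muscle markers. The summed signal of 20 muscle markers, with the respiratory chain isoforms left out, was 31750 on it, against 11501 to 21203 on the other 14 arrays, and it was the highest of all arrays for 10 of the 20. On it 11 of the 20 were called present, against 2 or 3 on every other array, and 9 were absent on all arrays. On that array Cox8b was neither the highest nor the lowest of its group, with 3419. Of the 3 muscle markers that could be tested, Eno3 and Tnnt1 rose at OBX day 5 against sham mice, both with and without the third array. The part of muscle tissue in these signals was not tested.

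Among 12 tested genes of ATP synthase, 1 rose at OBX day 5. Atp5e, the epsilon subunit of the central stalk, had signals of 6877, 5063 and 3893 at OBX day 5, against 3422, 3662 and 3392 in sham mice. At OBX day 1 they were 3274, 3788 and 3477 and at OBX day 7 4550, 4513 and 3548, against 3205, 3947 and 3466 in untreated mice. The OBX day 5 arrays lay above the sham arrays, the third by little, and the day 1 and day 7 groups overlapped with untreated mice. The log2 change at OBX day 5 was 0.56 ± 0.17 (95% interval 0.20 to 0.92; adjusted p 0.03). The call was lost without the first OBX day 5 array (0.35; adjusted p 0.0686) and without any 1 sham array (adjusted p 0.0597 to 0.0868).

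Atp5g1 and Atp5g2 encode the same mature subunit c of the membrane ring with different import signals. Atp5g2 had signals of 3724, 2458 and 2613 at OBX day 5, against 2005, 2267 and 2236 in sham mice, and its log2 change of 0.41 did not pass (adjusted p 0.0539). Atp5g1 had signals of 428, 417 and 360 at OBX day 5, against 453, 517 and 465 in sham mice, and its log2 change of −0.25 did not pass (adjusted p 0.404). The OBX day 5 arrays were all above the sham arrays for Atp5g2 and all below them for Atp5g1. Atp5o, a subunit of the peripheral stalk, had signals of 5800, 5805 and 4635 at OBX day 7 and 5081, 6186 and 5365 at OBX day 1, against 7189, 6516 and 8305 in untreated mice. Both OBX groups lay below untreated mice without overlap, and the log2 changes of −0.44 at OBX day 7 (adjusted p 0.104) and −0.40 at OBX day 1 did not pass.

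On the first day after bulbectomy no respiratory chain gene passed the test against untreated mice, where limma called 2.46% of all probe sets (1.80% rose and 0.666% fell). The log2 changes ranged between −0.57 and 0.29 with a median of −0.03, and 4 of the 64 genes had an unadjusted p under 0.05. For 49 genes (76.6%) the 95% interval lay within 1.5-fold in either direction, against 54.8% of all tested probe sets. When the first OBX day 5 array was kept out of the shared estimate of the spread, 3 genes fell, namely Ndufs4 (−0.57), Ndufv3 (−0.36) and Ndufs1 (−0.26), and 8.39% of all probe sets were called (5.03% rose and 3.36% fell).

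At OBX day 7 the only calls against untreated mice were the rise of Cox6b2 and the fall of Ndufv3, 2 of 64 genes, where 13.0% of all probe sets were called (7.01% rose and 6.02% fell). The log2 changes ranged between −0.54 and 0.92 with a median of −0.05, against 0.03 for all tested probe sets, and 44 genes (68.8%) had a 95% interval within 1.5-fold in either direction, against 44.7%. When the first OBX day 5 array was kept out of the shared spread, 2 genes rose and 14 fell at OBX day 7, and 27.2% of all probe sets were called (15.7% rose and 11.6% fell). The 14 were Ndufv3, Ndufs4, Cycs, Ndufa10, Atp5o, Cox5b, Cox4i1, Uqcrc1, Ndufv1, Cox8c, Ndufb7, Ndufa5, Ndufb8 and Ndufs1, with log2 changes between −0.54 and −0.25, and the genes that rose were Cox6b2 and Uqcr11.

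In the fits without that array, the falls at OBX day 5 and OBX day 7 overlapped. Of the 10 genes that fell at OBX day 5 against sham mice, 9 (90.0%) also fell at OBX day 7 against untreated mice, and these were 64.3% of the 14 that fell at OBX day 7. Over all tested probe sets the overlap was 69.8% of the 888 that fell at OBX day 5 and 71.3% of the 869 that fell at OBX day 7. The 9 were Ndufs1, Ndufs4, Ndufv1, Ndufv3, Ndufb7, Cox4i1, Cox5b, Atp5o and Cox8c, the last mostly called absent. The comparisons share no array in their means and use the same estimate of the spread.

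**Figure D4:**
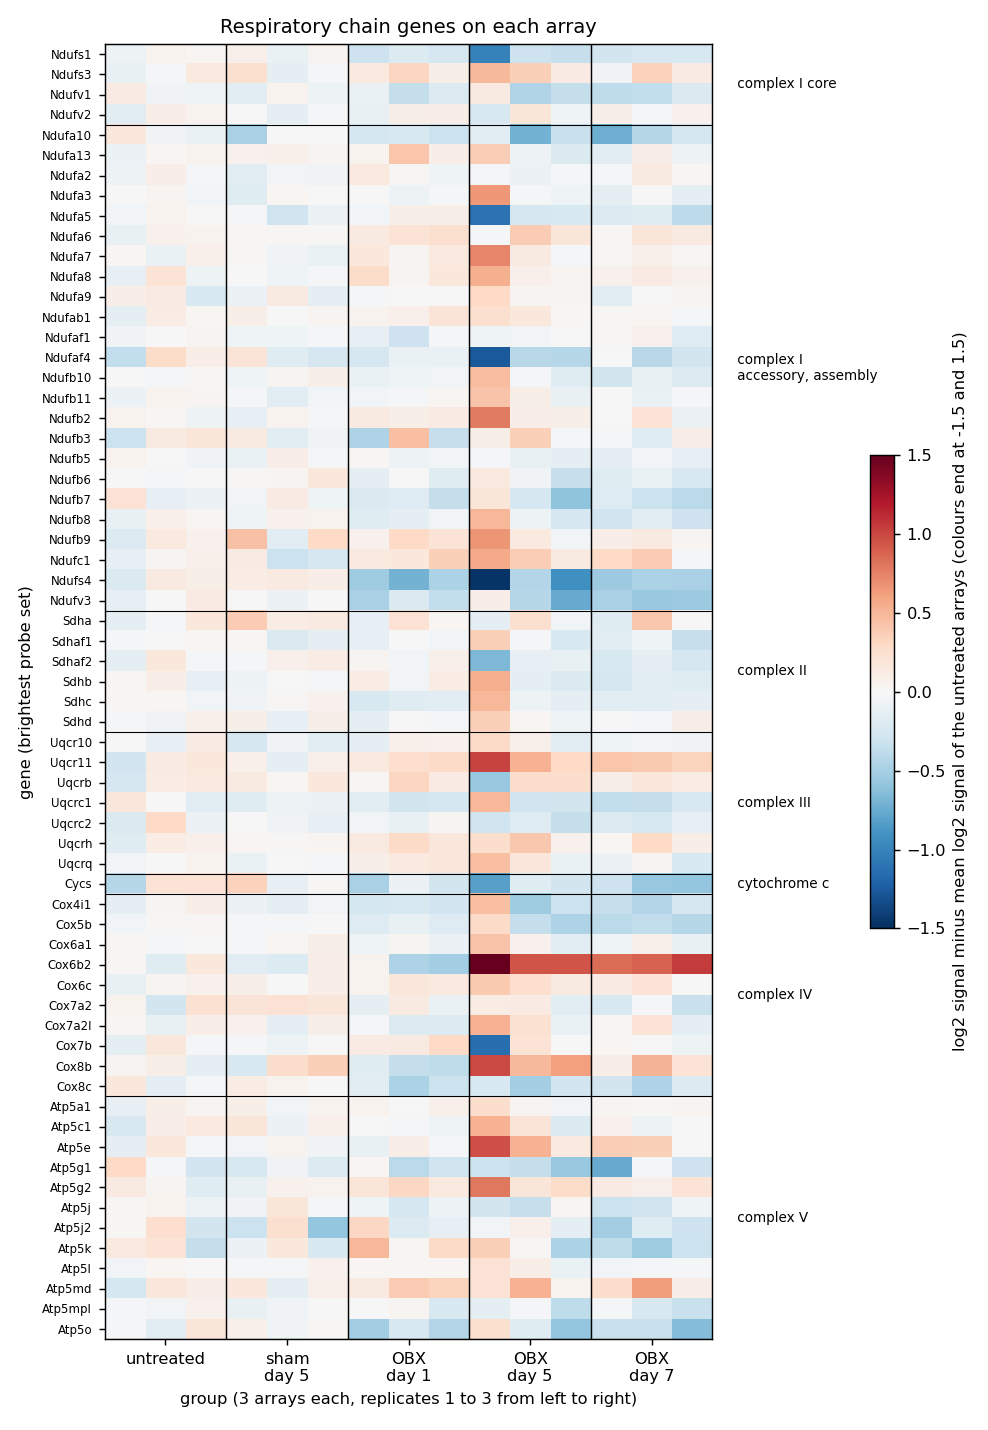
Log2 signal of the 64 tested genes on the 15 arrays, each minus the mean of the 3 untreated arrays, with genes ordered by complex. The first OBX day 5 array is the highest array for 34 genes.

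Changes between the times after bulbectomy were few. Between OBX day 5 and OBX day 1, 2 of the 64 genes rose and none fell, where 7.82% of all probe sets were called (3.96% rose and 3.86% fell). The 95% interval lay within 1.5-fold in either direction for 49 of the 64 genes (76.6%), against 47.8% of all tested probe sets. The genes that rose were Cox6b2, with a log2 change of 1.49 ± 0.20 (2.80-fold; adjusted p 0.000483), and Cox8b, with 1.00 ± 0.17 (2.01-fold; adjusted p 0.0019). Among the arrays of the second scan day, with 1 at OBX day 1, the log2 change was 1.69 for Cox6b2 (adjusted p 0.223) and 1.07 for Cox8b (adjusted p 0.334). A fit with scan day as a block over all arrays gives these same estimates by construction, because OBX day 1 is the only group on both scan days. It is no second check of the changes. With its spread estimated over all arrays, that fit called both genes as risen (adjusted p 0.0109 for Cox6b2 and 0.0473 for Cox8b). When the first OBX day 5 array was left out Cox5b fell as well, by 0.24. Cox6b2 and Cox8b kept their call whichever OBX day 1 or OBX day 5 array was left out, and the second probe set of Cox8b rose as well, by 0.85 (adjusted p 0.0186). Between OBX day 7 and OBX day 1 Cox6b2 rose by 1.23 ± 0.20 (adjusted p 0.00248). It also rose with scan day as a block (1.44, adjusted p 0.0426), an estimate that again rests on that 1 OBX day 1 array. By construction that estimate equals the one among the arrays of the second scan day, so it is no separate check. Among the arrays of the second scan day alone, with 1 at OBX day 1, the log2 change was 1.44 as well (adjusted p 0.367). It was the 1 call among the 64 genes, where 4.46% of all probe sets were called (2.21% rose and 2.25% fell). When the first OBX day 5 array was kept out of the shared spread, Cox6b2 and Cox8b rose and Atp5k, Ndufa5, Sdhb and Cox5b fell, and 11.2% of all probe sets were called (6.06% rose and 5.11% fell). In that comparison 55 genes (85.9%) had an interval within 1.5-fold, against 55.2% of all tested probe sets.

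Between OBX day 7 and OBX day 5, which were scanned on the same day, limma called no probe set at all (0%). The median log2 change of the 64 genes was −0.13, against 0.01 over all tested probe sets, and was −0.03 without the first OBX day 5 array and −0.23 without the third. Of the 64 genes 50 were below zero and 14 above, and 4 had an unadjusted p under 0.05. For 45 genes (70.3%) the 95% interval lay within 1.5-fold in either direction, against 57.0% of all tested probe sets. The change of Cox6b2 from its control was larger at OBX day 5 than at OBX day 1 by 1.57 ± 0.29 on the log2 scale (95% interval 0.96 to 2.18; adjusted p 0.0148), a contrast in which 1.48% of all probe sets were called (0.546% higher and 0.932% lower). The same contrast for Cox8b was 0.87 ± 0.24 and did not pass (adjusted p 0.0885). Between OBX day 7 and OBX day 5 the change of Cox6b2 differed by −0.34 (adjusted p 0.822).

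With the other control the picture at each time was similar in number. Against sham mice, 0 of the 64 genes were called at OBX day 1, where 3.28% of all probe sets were called (2.26% rose and 1.01% fell), 5 genes had an unadjusted p under 0.05, and Cox6b2 alone rose at OBX day 7, where 12.9% were called (7.06% rose and 5.86% fell). Against untreated mice, 4 genes rose and 3 fell at OBX day 5, where 20.2% were called (11.2% rose and 8.95% fell). Those that rose were Cox6b2 (1.18), Cox8b (0.70), Uqcr11 (0.61) and Atp5e (0.54), and those that fell were Ndufs4 (−0.94), Ndufaf4 (−0.70) and Ndufs1 (−0.55). Ndufc1 and Cox8c, called against sham mice, were not called against untreated mice, and Ndufaf4 was called only against untreated mice.

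Across all 5 groups the F test called 5 of the 64 genes, where 19.3% of all probe sets were called. The 5 were Cox6b2 (adjusted p 0.000235), Ndufs4 (0.00569), Cox8b (0.00588), Cox8c (0.0411, mostly called absent) and Uqcr11 (0.0432). Ndufs1 (0.0511) and Atp5e (0.0808) missed the threshold.

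The sham operation alone moved none of the genes beyond the threshold at day 5, when set against untreated mice, and limma called 0% of all probe sets. None of the 64 genes had an unadjusted p under 0.05, the log2 changes ranged between −0.22 and 0.21, and 62 of the 64 genes (96.9%) had a 95% interval within 1.5-fold in either direction, against 69.9% of all tested probe sets.

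Other mitochondrial and metabolic genes were counted in the same way. Without the first OBX day 5 array, limma called 27.4% of all tested probe sets at OBX day 5 and 27.2% at OBX day 7. Without the third it called 21.8% at OBX day 5. Of 13 tested genes of mitochondrial fatty acid oxidation, 6 rose and 1 fell at OBX day 5 against sham mice, with a median log2 change of 0.22, and 8 rose and 1 fell without the first OBX day 5 array. These 7 calls are 53.8% of the list, against 21.0% of all tested probe sets. Acaa2 (0.91), Decr1 (0.91), Acadl (0.80) and Cpt1a (0.77), which act in the import and stepwise shortening of fatty acids, rose, and Acads (−0.46), which acts on short chains, fell. Cpt1a, Acadl and Decr1 also rose at OBX day 7 against untreated mice, by 0.52, 0.66 and 0.81, and 3 genes rose and 1 fell there (30.8%, against 13.0% of all tested probe sets), or 6 and 1 when the first OBX day 5 array was kept out.

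Of 16 tested glycolytic genes, 2 rose and 4 fell at OBX day 5 against sham mice, and 2 rose and 5 fell at OBX day 7 against untreated mice. These are 37.5% of the list at OBX day 5, against 21.0% of all tested probe sets, and 43.8% at OBX day 7, against 13.0%. Without the first OBX day 5 array 2 rose and 6 fell at OBX day 5, and without the third 1 rose and 2 fell. Pgk1 rose at OBX day 5 (0.62) and OBX day 7 (0.36). Eno2, the enolase of neurons, fell by 0.85 at OBX day 5 and by 0.78 at OBX day 7, beside the fall of the neuron markers given above. Of 18 tested genes of the TCA cycle and pyruvate entry, 2 rose and 2 fell at OBX day 5 (22.2%, close to the 21.0% of all tested probe sets), with Pcx (1.23) and Idh2 (0.85) higher and Sucla2 (−0.71) and Idh3a (−0.60) lower, and these 4 were also called without the first OBX day 5 array, where 3 rose and 3 fell.

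Genes that regulate mitochondrial biogenesis and transcription fell in 3 of 11 tested cases at OBX day 5 (27.3%, against 21.0% called of all tested probe sets) and rose in none, with a median log2 change of −0.26, and 2 rose and 4 fell without the first OBX day 5 array. Ppargc1a, a coactivator of many respiratory chain genes, had a log2 change of −2.02 at OBX day 5 and −1.22 at OBX day 7 and fell at both times. Of 59 tested mitochondrial ribosomal protein genes 5 rose and 1 fell at OBX day 5 (10.2%, against 21.0% of all tested probe sets), with a median of 0.14. When the first OBX day 5 array was left out 3 rose and 4 fell, where 27.4% of all tested probe sets were called. None of the 59 genes passed at OBX day 1 or OBX day 7. When that array was kept out of the shared spread 4 rose and 3 fell at OBX day 7, where 27.2% of all tested probe sets were called. None of 7 tested genes for assembly of the chain outside the Nduf and Sdh families passed at any of these times, while Hccs rose and Cox18 fell at OBX day 7 without that array.

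**Figure D5:**
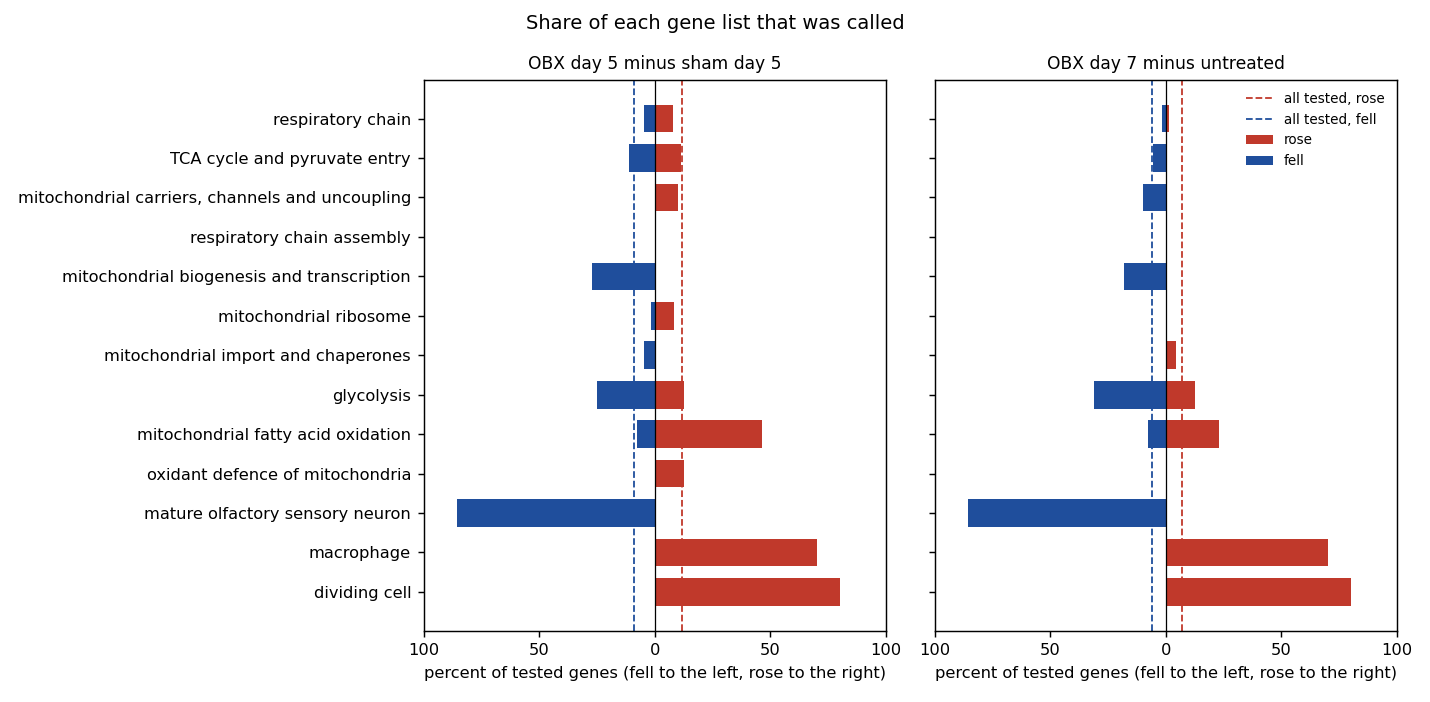
Percent of tested genes that rose or fell in the respiratory chain genes, in 9 mitochondrial and metabolic lists and in 3 lists of cell type markers, at day 5 after OBX (control sham mice) and at day 7 (control untreated mice); dashed lines give the percent of all tested probe sets (11.8 rose and 9.19 fell at OBX day 5, 7.01 rose and 6.02 fell at OBX day 7). The respiratory chain genes lie below the dashed lines in both comparisons, with 5 and 3 of 64 genes at OBX day 5 and 1 and 1 at OBX day 7, but without the first OBX day 5 array the share that fell was 15.6% at OBX day 5, against 11.8% of all probe sets, and 21.9% at OBX day 7, against 11.6%.

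Of the 74 genes, 10 were not tested. Ndufa1, Ndufa12, Ndufc2, Cox5a, Cox6b1, Cox8a and Atp5pb were called present on no array, Cox6a2 on 1 and Cox7a1 and the brightest probe set of Atp5d on 2, and 2 other probe sets of Atp5d, which encodes the delta subunit, had log2 changes of 0.18 each at OBX day 5 that did not pass. Thus the general isoforms Cox6b1 and Cox8a could not be set beside Cox6b2, Cox8b and Cox8c. Of the 64 tested genes, 17 are measured by a probe set whose suffix marks shared or incomplete probes, among them Cox6b2, Cox8b, Atp5e and Cox4i1.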

How the data were processed

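RNA of 15 pools was hybridised to 1-colour Affymetrix arrays, in 5 groups of 3 by their titles. What the authors deposited per probe set and array is a linear signal intensity, and the values show that all arrays had been scaled to 1 common trimmed mean; the software is not given in the sources used here. A detection p-value and call were deposited with each signal. Deposited array station settings, a file of another kind than a measurement, gave scan day and a hybridisation date. Arrays that share that date entry are called a fluidics run here. Precision is limited by how many arrays there are.

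Values under 1 were set to 1 before log2. Probe sets present on at least 3 of 15 arrays (7508 of 12488) were fitted with 1 mean per group in limma 3.58.1 under R 4.3.3, with a variance trend. P-values are two-sided and adjusted by Benjamini-Hochberg over all 7508 probe sets within each comparison, with a threshold of 0.05. SE and 95% intervals come from the moderated variances. Where no array of the dimmer group called a probe set present, each dim array was set to its own signal or to its lowest present signal, whichever is higher. For Cox6b2 at OBX day 5 this gave 2.40-fold, the same as the fitted change, so it is a point estimate. The script was tested on simulated data.

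Members, roles and lists were chosen with earlier results of these data known. Signals by array are given for the 2 members of each role with the smallest F-test p. They are also given for tested members of isoform families and for the largest called rise and fall. Ndufc1, Ndufaf4, Cox7b and the untested Cox6a2 lie outside that rule and were added after their values were seen. Promoters are from RefSeq. Alternatives were the floor, filter, normalization, variance trend, array weights, scan day, fluidics run, replicate block, control, probe set and each array left out.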

Additional observations from a re-analysis of the deposited data

Results flagged for a closer look

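The change of Cox6b2 from its control differed between OBX day 5 and OBX day 1 by 1.57 on the log2 scale (limma, adjusted p 0.0148; 6 arrays at OBX day 5 and in sham mice, 6 at OBX day 1 and in untreated mice). Its signals were 1732, 1059 and 1060 at OBX day 5, against 495, 480 and 590 in sham mice, and 573, 400 and 386 at OBX day 1, against 559, 488 and 616 in untreated mice. The contrast was the only one of 64 members called.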

How the results depend on the processing

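Counts of members called are given for settings that moved them by over 1.5 times, and the cause was not tested. The share called of all tested probe sets is not set beside them, so they describe the settings and are no result about the members. For OBX day 1 against untreated mice, where none was called, array weights called 5, the arrays of the first scan day 1, and fluidics run as a random block 8. For OBX day 5 against sham mice (8 called) they were 15 with array weights, 0 with scan day as a block, 31 with fluidics run and 0 with second brightest probe sets, which few genes have. For OBX day 7 against untreated mice (2 called) they were 1 without a filter, with median centring, without a variance trend, with the replicate block and with sham mice as control, 5 with quantile normalization, 16 with array weights, 23 with fluidics run, and 0 with scan day or second brightest probe sets. For OBX day 5 against OBX day 1 (2 called) they were 0 within the second scan day, 6 with fluidics run and 1 with second brightest probe sets. For OBX day 7 against OBX day 5 (0 called) fluidics run gave 7. For OBX day 7 against OBX day 1 (1 called) they were 7 with array weights, 3 with fluidics run, and 0 within the second scan day or with second brightest probe sets. The F test (5 called) gave 3 without a filter or a variance trend, 26 with array weights, 0 with scan day and 38 with fluidics run. The contrast of day 5 and day 1 changes (1 called) gave 0 with scan day and 8 with fluidics run.

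Leaving out 1 array at a time gave 0 to 3 called members at OBX day 1, 4 to 16 at OBX day 5 and 1 to 16 at OBX day 7 against controls, 2 to 6 for OBX day 5 against OBX day 1, 1 to 6 for OBX day 7 against OBX day 1 and 3 to 16 in the F test. The highest counts at OBX day 1 and OBX day 7 came without the first OBX day 5 array, an alternative chosen after seeing the data. That setting called 8.39% and 27.2% of all tested probe sets, against 2.46% and 13.0% in the main fit. Over the fits with 1 array left out, the median log2 change of the members ranged between −0.05 and 0.17 at OBX day 5. It ranged between −0.11 and −0.04 at OBX day 7, and between −0.23 and −0.03 for OBX day 7 against OBX day 5. The sign of the median at OBX day 5 thus rests on the first OBX day 5 array. Of single results of named members, 2684 kept their side of the threshold, 87 passed it and 38 lost it. Uncalled changes that switched sign were counted among those kept, and 0 switched direction with a call in either fit.

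Replicate numbers did not pair the samples: 8 of 30 same-number pairs correlated above 0.1, and 7 of 15 arrays correlated best with an array of their own number. With the replicate block 5 members were higher and 3 lower at OBX day 5, and 1 was called at OBX day 7. The correlation within a fluidics run was estimated at −0.25. The untreated, OBX day 5 and OBX day 7 arrays each shared a single run, so a negative correlation lowers the errors of their group means. The SE of Cox6b2 at OBX day 7 was 0.12 with fluidics run as a random block, against 0.20 in the main fit. The higher counts with fluidics run therefore cannot be read as more changed genes. Scan day and OBX at days 5 and 7 overlap except for 1 array, and probe sets below detection give only bounds.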
